A study of Homo sapiens with 16 samples.

Results

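Gap junction channels and desmosomes were followed in 2 lung carcinoma lines through 9 genes: the connexins GJB2 and GJA1, and the desmosome genes DSP, JUP, PKP2, PKP3, DSG2, DSC2 and DSC3. They were found by their symbols in the deposited table, as 9 of 42351 genes, and all 9 were among the 15067 genes that passed the expression filter. GJB2 and DSC3 passed it through a single line each. Poly(A) RNA had been sequenced from A549 cells, a lung cancer line with wt MET, and from NCI-H596 cells, a lung adenosquamous carcinoma line whose MET lacks the juxtamembrane stretch of exon 14 (MET∆14). The wt MET line is called A549 here because the labels of its samples do so. The columns of the deposited table spell it H549, and the text of the study describes EKVX as its lung line with wt MET, so the identity of this line rests on the labels. All cells were first deprived of serum, for 12 h according to the labels and for longer according to the methods of the study. They then received hepatocyte growth factor (HGF), the ligand of MET, for 0, 3, 6 or 12 h. Each of these 8 conditions had 2 libraries. Each MET status is represented by 1 cell line, so the MET status and the line cannot be told apart. The cells at 0 h are the only ones without HGF, so time after serum withdrawal and the effect of HGF cannot be told apart either.

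Connexins assemble into hemichannels. Hemichannels of neighbouring cells dock into gap junction channels, which pass ions and small metabolites. Desmosomes hold epithelial cells together. The desmosomal cadherins (desmogleins and desmocollins) span the gap between cells, and plakoglobin (JUP) and the plakophilins bind their tails. Desmoplakin (DSP) ties this plaque to keratin filaments. HGF is known for dispersing epithelial cells in culture, where such contacts loosen.

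The 16 libraries held between 10158590 and 23909304 counts, and the 9 genes took 0.0638% to 0.207% of them. Levels are given in CPM (counts relative to the scaled library size) and, for groups, as mean ± SD of 2 libraries. Changes are log2 fold changes (LFC) ± SE, called at an adjusted p-value under 0.05 in edgeR's quasi-likelihood F test. The SE was derived from that test, as the absolute LFC divided by the square root of F. The epithelial markers EPCAM, CDH1, KRT8, KRT18 and KRT19 summed to 1737 to 2518 CPM in A549 and 2016 to 3227 CPM in NCI-H596. In A549 the sum came almost wholly from KRT8 and KRT18, while EPCAM was near 0 (2.42 ± 0.769 CPM at 0 h, SD, n = 2) and CDH1, or E-cadherin, was low and fell with HGF, from 12.6 and 5.94 CPM at 0 h to 2.72 and 2.89 CPM at 12 h (adjusted p = 0.000718). In NCI-H596 at 0 h, EPCAM was at 36.2 ± 1.77 CPM and CDH1 at 103.9 ± 8.05 CPM. Squamous markers summed to 1.21 to 3.57 CPM in A549 and to 2349 to 3337 CPM in NCI-H596, while the lung adenocarcinoma markers NKX2-1, NAPSA, SFTPB and SFTPC were at or near 0 in both (at most 2.26 CPM). CDKN2A, which A549 is known to have lost, had 0 counts in all A549 libraries and 1466 to 3464 counts in NCI-H596. EGR1, an early gene of growth factor signalling, rose in A549 from 55.9 and 118 CPM at 0 h to 2203 and 2362 CPM at 3 h. In NCI-H596 it fell, from 212 and 228 CPM at 0 h to 127.5 and 115 CPM at 3 h (LFC -0.86 ± 0.222, adjusted p = 0.00949) and 33.3 and 29.2 CPM at 12 h (LFC -2.81 ± 0.244, adjusted p = 2.16e-06). MET itself lay between 1206 and 1539 CPM in A549 and between 369.5 and 443 CPM in NCI-H596. Libraries of the same condition differed by more than sampling noise, with a chi-square per degree of freedom of 2.795 to 9.95 in 7 conditions. The 9.95 was that of A549 at 0 h, the baseline of the A549 changes, and the next lower value was 4.545 (NCI-H596 at 6 h). The chi-square per degree of freedom was 34.5 between the NCI-H596 libraries at 12 h, which stand apart from each other.

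The 200 bases before the RefSeq start sites of GJB2 and GJA1 are shown because these connexins responded in opposite directions in NCI-H596. They come from the RefSeq promoter table (GRCh38.p14), which held 7 of the 9 genes (not PKP2 and PKP3). Capitals mark matches, on either strand, to the GC box GGGCGG or to the AP-1 motif TGANTCA, whose letters do not overlap.
GJB2, chr13:20192939-20193138, minus strand: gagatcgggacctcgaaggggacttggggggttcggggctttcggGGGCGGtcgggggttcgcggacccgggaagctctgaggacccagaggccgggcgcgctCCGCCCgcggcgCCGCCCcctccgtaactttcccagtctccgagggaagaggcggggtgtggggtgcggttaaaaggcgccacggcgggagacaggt
GJA1, chr6:121435446-121435645, plus strand: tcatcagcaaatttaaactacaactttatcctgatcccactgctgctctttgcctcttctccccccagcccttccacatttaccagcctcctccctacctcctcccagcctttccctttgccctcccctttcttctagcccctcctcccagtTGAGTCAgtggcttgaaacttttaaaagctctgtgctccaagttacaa
The GJB2 stretch had a GC content of 72.0% and 3 GC boxes, and the GJA1 stretch a GC content of 50%, no GC box and 1 AP-1 match. The GENCODE model of GJA1 starts at 121435595, within this stretch, and the AP-1 match lies after that start. The table gives DSC2 and JUP a pair of start sites, which makes 9 windows for the 7 genes. In the full windows, from 250 bases before to 50 bases after each start, a GC box was found in 6 of 9 and in 45.0% of all 35116 promoters of the table. The AP-1 letters were found in 1 of 9, that of GJA1, and in 7.71% of all promoters. The E-box CAGGTG, which SNAI and ZEB factors bind, was found in 5 of 9 windows, with the match of GJB2 reaching across its start site, and in 20.6% of all promoters. The TEAD motif GGAATG was found in 0 of 9 windows (14.0% of all promoters) and the FOXO motif GTAAACA in 1, of DSC2 (3.42%). These are matches of letters and show no binding.

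GJB2, a connexin of cochlea and skin that is the gene most often mutated in inherited deafness (hg38, chr13:20187463-20192938, minus strand), had the largest response of the 9 genes. In NCI-H596 it was at 14.0 and 15.7 CPM at 0 h, 157 and 131 CPM at 3 h, 145 and 192 CPM at 6 h, and 60.3 and 69.2 CPM at 12 h. Every library with HGF was above both libraries without it, and the highest values were at 3 and 6 h. The rise over 14.9 ± 1.19 CPM at 0 h (SD, n = 2) was 9.65-fold at 3 h (LFC 3.27 ± 0.164, adjusted p = 5.8e-09) and 11.3-fold at 6 h (LFC 3.50 ± 0.164, adjusted p = 1.73e-09). At 12 h it was 4.33-fold (LFC 2.11 ± 0.163, adjusted p = 3.16e-07). These calls held with any 1 library left out. In RNA from whole cultures, more cells that express a gene and more RNA per cell cannot be told apart. Between 3 and 6 h no further difference was called (LFC 0.23, adjusted p = 0.351), and from 6 to 12 h GJB2 fell (LFC -1.39 ± 0.147, adjusted p = 3.2e-05). In A549 the gene had 0 to 4 counts in every library, so no fold change is given there, and its response could not be compared between the lines. Pooled over the libraries of a condition, the level in NCI-H596 was 419 times that in A549 at 0 h (531 against 1 counts, exact 95% interval 74.8 to 16600, counting error only). At 6 h it was 1100 times as high (6424 against 5 counts, interval 471 to 3380).

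GJA1, the most widely expressed connexin (chr6:121435595-121449727, plus strand), was, of the pair, the connexin that A549 expressed. Its levels there were 134 and 117 CPM at 0 h, 93.3 and 91.3 CPM at 3 h, 80.9 and 81.2 CPM at 6 h, and 93.0 and 92.2 CPM at 12 h. All A549 libraries with HGF were below both libraries without it, and GJA1 fell at 3 h (LFC -0.44 ± 0.107, adjusted p = 0.00953), 6 h (LFC -0.63 ± 0.107, adjusted p = 0.000384) and 12 h (LFC -0.44 ± 0.106, adjusted p = 0.00506). The calls at 3 and 12 h were lost without replicate 1 of A549 at 0 h (adjusted p = 0.111 and 0.0675), and the call at 3 h also without replicate 1 or replicate 2 of A549 at 3 h (adjusted p = 0.0748 and 0.0948). In NCI-H596, GJA1 was at 20.7 and 19.9 CPM at 0 h, 12.7 and 13.0 CPM at 3 h, 7.04 and 10.03 CPM at 6 h, and 7.06 and 8.34 CPM at 12 h. It fell throughout, by 1.58-fold at 3 h (LFC -0.66 ± 0.130, adjusted p = 0.00127), 2.32-fold at 6 h (LFC -1.21 ± 0.133, adjusted p = 3.82e-06) and 2.67-fold at 12 h (LFC -1.41 ± 0.141, adjusted p = 2.79e-06). The step from 3 to 6 h was called (adjusted p = 0.0206) and that from 6 to 12 h was not (adjusted p = 0.37). The annotated pseudogene GJA1P1 had 0 to 4 counts in every library.

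The fall of GJA1 was larger in NCI-H596 than in A549. The difference of the LFCs, NCI-H596 minus A549, was -0.21 at 3 h (adjusted p = 0.457), -0.58 ± 0.171 at 6 h (adjusted p = 0.0174) and -0.98 ± 0.177 at 12 h (adjusted p = 0.00105). Replicates of NCI-H596 at 6 h set the value at that time: the difference was -0.41 (adjusted p = 0.0695) without replicate 1 and -0.93 (adjusted p = 0.00179) without replicate 2. Before HGF, GJA1 was 6.19-fold lower in NCI-H596 than in A549 (LFC -2.63 ± 0.118, adjusted p = 1.55e-11).

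**Figure D1:**
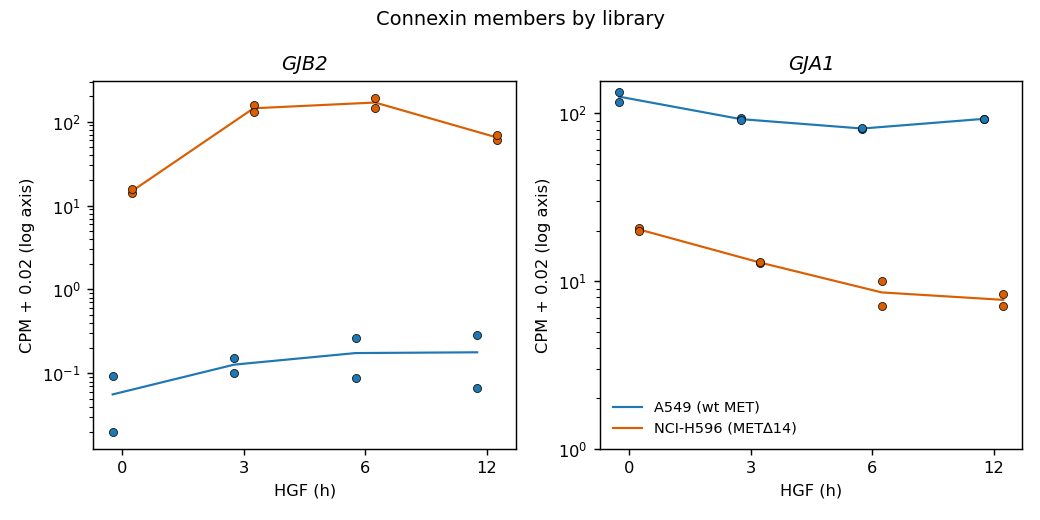
Level of GJB2 (left) and GJA1 (right) in each library, as CPM plus 0.02 on a log axis, against hours of HGF drawn as equally spaced categories. Points are the 2 libraries of a condition and lines join the means. GJB2 rose in NCI-H596 from 14.9 to 169 CPM at 6 h and lay at or below 0.269 CPM in A549, whereas GJA1 was lower at all times with HGF in both lines.

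Per kilobase of the longest annotated transcript, the levels of GJB2 and GJA1 overlapped in NCI-H596 before HGF. The ratio of GJB2 to GJA1 was 0.899 and 1.05 in the libraries at 0 h, 16.4 and 13.4 at 3 h, 27.4 and 25.5 at 6 h, and 11.4 and 11 at 12 h. The libraries of the 4 times did not overlap, and the transcript of GJB2 exceeded that of GJA1 in all 6 libraries with HGF.

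**Figure D2:**
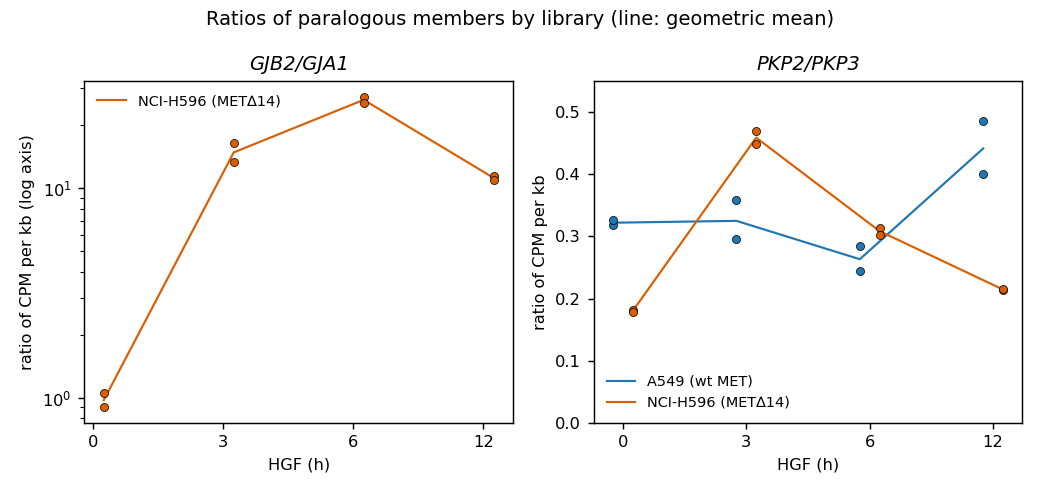
Ratio of GJB2 to GJA1 (left, log axis, NCI-H596 only since GJB2 had at most 4 counts in A549) and of PKP2 to PKP3 (right, both lines), from CPM per kilobase, in each library against hours of HGF as equally spaced categories. Lines join geometric means of the 2 libraries. The connexin ratio went from about equal at 0 h to 27.4 and 25.5 at 6 h, and the plakophilin ratio of NCI-H596 peaked at 3 h with 0.470 and 0.448.

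Counted over the 9 genes, 1 was called against 0 h at 3 h in A549 (0 higher and 1 lower, where 17.4% of all genes tested were called). At 6 h 2 were called (0 and 2, against 34.2%) and at 12 h 6 (3 and 3, against 35.1%). In NCI-H596, 5 were called at 3 h (2 higher and 3 lower, against 31.7%), 6 at 6 h (3 and 3, against 44.1%) and 5 at 12 h (3 and 2, against 38.3%). At any time, 7 were called in A549 (40.3% of all genes) and 7 in NCI-H596 (54.1%), in each line out of 8 genes with at least 10 counts there. Without replicate 1 of A549 at 12 h, the calls in A549 at 12 h went from 6 to 3 and those at any time from 7 to 4. The 2 calls in A549 at 6 h went to 1 without replicate 2 of that time. Without either library of NCI-H596 at 0 h, the calls in NCI-H596 at 12 h went from 5 to 3. GJB2 and DSC3 could not be compared between the lines, which leaves 7 genes. Of these, the response differed between the lines for 1 gene at 3 h (17.4% of all genes), 4 at 6 h (30.2%), 4 at 12 h (24% of all genes) and 4 in the F test over the 3 times (37.6%). The 4 calls at 6 h went to 2 without replicate 2 of A549 at 0 h, either A549 library of 6 h, either NCI-H596 library of 0 h or replicate 1 of NCI-H596 at 6 h. Those at 12 h went to 2 without replicate 2 of A549 at 12 h or replicate 1 of NCI-H596 at 0 h, and at 3 h 2 were called without replicate 2 of NCI-H596 at 12 h.

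The genes did not move one way as a group. The median LFC of the 8 genes above 10 counts was -0.09, -0.04 and 0.14 at 3, 6 and 12 h in A549, where the medians over all genes were -0.04, -0.05 and 0.00. In NCI-H596 it was -0.16, -0.18 and 0.10, against -0.05, -0.04 and -0.02 over all genes. Between neighbouring times, 2 genes fell from 3 to 6 h in NCI-H596 (GJA1 and PKP2, against 9.77% of all genes called) and 3 changed from 6 to 12 h (GJB2 and PKP2 lower, DSG2 higher, against 18.6%). In A549, 0 were called from 3 to 6 h by edgeR and by DESeq2 (2 had an unadjusted p under 0.05, and 3.1% of all genes were called), and 2 from 6 to 12 h (PKP2 higher, PKP3 lower, against 11.6%). These step counts changed with 1 library left out, also with one outside the step, and the share of all genes called was not computed for such fits. In NCI-H596 from 3 to 6 h there were 0 calls without either library of 3 h or replicate 1 of 6 h, 1 without replicate 2 of 6 h and 4 without either library of 12 h, and from 6 to 12 h 1 without replicate 2 of 6 h and 5 without replicate 2 of 12 h. In A549 from 6 to 12 h there were 0 without replicate 2 of 6 h or replicate 1 of 12 h, 1 without replicate 1 of 6 h, and 6 and 5 without replicate 1 and replicate 2 of NCI-H596 at 12 h, each of which also gave 1 call in A549 from 3 to 6 h.

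The model with line and time as additive terms tests a time effect common to the lines. Of the 7 genes with at least 10 counts in both lines it called 4 (30.6% of all genes). These were GJA1 (adjusted p = 0.00129), DSC2 (adjusted p = 0.00181), JUP (adjusted p = 0.0126) and DSG2 (adjusted p = 0.0152). PKP2, with called rises in NCI-H596 and a called fall in A549, did not pass (adjusted p = 0.161).

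**Figure D3:**
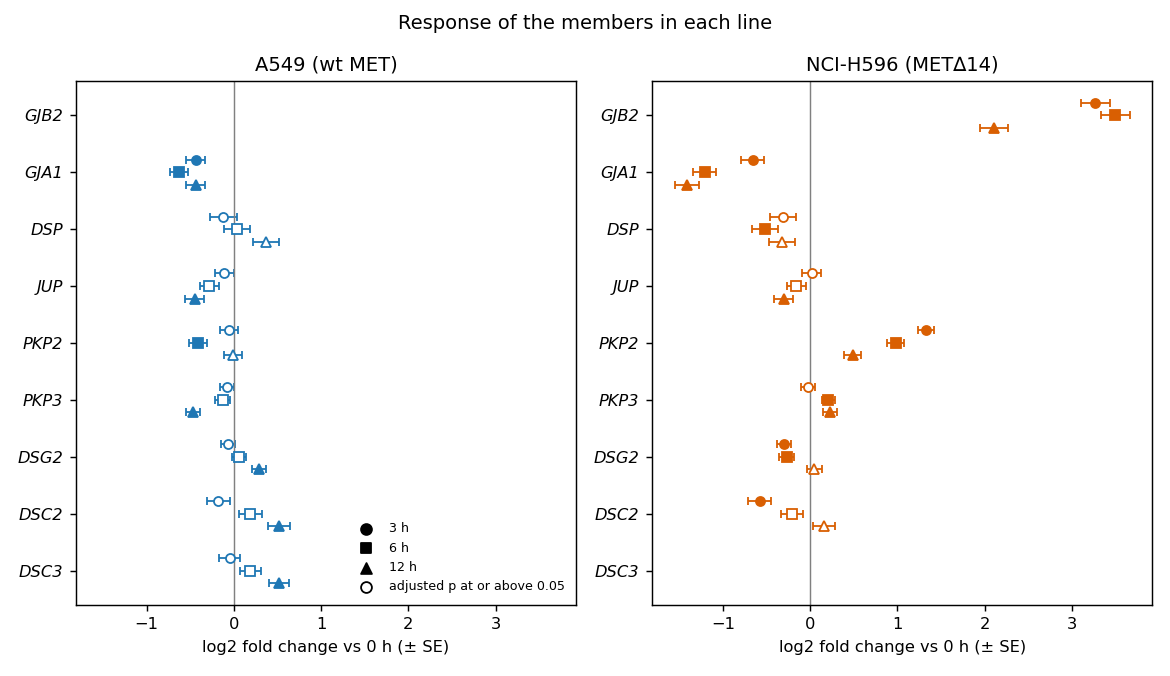
Log2 fold change (LFC) against 0 h of the same line (± SE) for the 9 genes at 3, 6 and 12 h of HGF in A549 (left) and NCI-H596 (right). Filled symbols have an adjusted p-value under 0.05 (edgeR), and genes with fewer than 10 counts in every library of a line (GJB2 in A549, DSC3 in NCI-H596) are left out. GJB2 (3.50 at 6 h) and PKP2 (1.33 at 3 h) stand far to the right in NCI-H596, and GJA1 (-1.41 at 12 h) to the left.

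Before HGF, the desmosome genes were mostly higher in NCI-H596. GJB2 and DSC3 passed the filter through 1 line each and so had to differ. Of the 7 genes with at least 10 counts in both lines, 6 differed at 0 h (5 higher and 1 lower in NCI-H596). Of all genes, 80.2% differed, 40.6% higher and 39.6% lower. DSP was 4.87-fold higher than in A549 (LFC 2.28 ± 0.156, adjusted p = 2.26e-09), PKP3 2.71-fold (LFC 1.44, adjusted p = 2.57e-10) and JUP 2.69-fold (LFC 1.43, adjusted p = 1.01e-08). DSG2 was 1.63-fold higher (LFC 0.71, adjusted p = 1.05e-06) and PKP2 1.51-fold (LFC 0.60, adjusted p = 4.96e-05). DSC2 was at 23.9 and 19.6 CPM in A549 and at 23.7 and 22.8 CPM in NCI-H596, and no difference was called (LFC 0.10 ± 0.127, adjusted p = 0.494). DSC3 was present in A549 and at 0 counts in both NCI-H596 libraries, where it was at least 123-fold lower than in A549 when set against a floor of 3 counts per library.

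Per kilobase of the longest transcript, DSP was the most abundant of the 9 at 0 h in NCI-H596 (104 ± 1.68 CPM per kb, SD, n = 2), followed by JUP (90.4 ± 0.530), PKP3 (57.6 ± 2.89) and DSG2 (51.7 ± 0.356). PKP2 (10.4 ± 0.417), GJA1 (6.58 ± 0.197), GJB2 (6.41 ± 0.513) and DSC2 (1.88 ± 0.0559) were lower, and DSC3 was at 0. Only the libraries of GJA1 and GJB2 overlapped in this order. In A549, GJA1 came first (40.7 ± 4.01 CPM per kb), followed by JUP (33.5 ± 6.84), DSG2 (31.6 ± 2.16), DSP (21.3 ± 2.14) and PKP3 (21.3 ± 0.581). PKP2 (6.84 ± 0.0653), DSC3 (3.17 ± 0.0985), DSC2 (1.76 ± 0.245) and GJB2 (0.0156 ± 0.0221) were lower. There, GJA1 and JUP, JUP and DSG2, and DSP and PKP3 were neighbours whose libraries overlapped. DSG2 was the most abundant of the cadherins in both lines. With the merged exons of all transcripts as the length, the levels of PKP2 and DSG2 in NCI-H596 at 0 h came out at 4.39 and 31.0 CPM per kb. This changes the order: PKP2 then lay below GJB2 (6.01) and GJA1 (5.98) in NCI-H596, and in A549 PKP2 (2.90) lay below DSC3 (3.13) and DSP (15.2) below PKP3 (15.8).

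DSP, the plaque protein that anchors keratin filaments (chr6:7541338-7586714, plus strand), had levels in NCI-H596 of 1018 and 995 CPM at 0 h, 834 and 793 CPM at 3 h, 636 and 769 CPM at 6 h, and 972 and 641 CPM at 12 h. All libraries with HGF were below both libraries at 0 h, and the replicates at 12 h were farther apart than any other pair (806 ± 234.5 CPM, SD, n = 2). A fall was called at 6 h (LFC -0.52 ± 0.148, adjusted p = 0.0103), and not at 3 h (LFC -0.31, adjusted p = 0.13) or 12 h (LFC -0.32, adjusted p = 0.104). The call at 6 h was lost without replicate 1 of NCI-H596 at 6 h (LFC -0.40, adjusted p = 0.102). Leaving out replicate 1 of NCI-H596 at 12 h gave calls at 3 h (adjusted p = 0.00422) and 12 h (LFC -0.65, adjusted p = 3.61e-05), and leaving out replicate 2 gave the call at 3 h (adjusted p = 0.00342).

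In A549, DSP was at 221 and 192 CPM at 0 h, 189 and 190 CPM at 3 h, 205 and 220 CPM at 6 h, and 270 and 263 CPM at 12 h. The libraries at 12 h were the highest, but the difference from 0 h missed the threshold (LFC 0.37 ± 0.150, adjusted p = 0.0721) and was called once either NCI-H596 library of 12 h was left out (adjusted p = 0.00113 without replicate 1 and 0.00114 without replicate 2). The response was lower in NCI-H596 than in A549 at 12 h (difference -0.68 ± 0.210, adjusted p = 0.0277) and over the 3 times (adjusted p = 0.0494). The former call was lost without replicate 2 of A549 at 0 h or without any one library of A549 at 12 h or NCI-H596 at 0 h (adjusted p = 0.0587 to 0.101), and its size was -0.42 (adjusted p = 0.0132) without replicate 2 of NCI-H596 at 12 h. The latter was lost in 13 of 16 fits with 1 library left out, all but those without replicate 2 of NCI-H596 at 6 h or either of its 12 h libraries (adjusted p up to 0.128).

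JUP, or plakoglobin, which also takes part in adherens junctions (chr17:41754604-41786931, minus strand), fell at 12 h in both lines. Its A549 levels were 134.5 and 100.6 CPM at 0 h, 115 and 103 CPM at 3 h, 92.7 and 101.1 CPM at 6 h, and 82.9 and 88.9 CPM at 12 h, so that the groups at 0 and 12 h did not overlap (LFC -0.45 ± 0.112, adjusted p = 0.00584). That call was lost without replicate 1 of A549 at 0 h (LFC -0.23, adjusted p = 0.117) or replicate 1 at 12 h (adjusted p = 0.0593). In NCI-H596 the levels were 318 and 315 CPM at 0 h, 324 and 318 CPM at 3 h, 272 and 294 CPM at 6 h, and 257 and 258 CPM at 12 h. The fall at 12 h was small (LFC -0.30 ± 0.109, adjusted p = 0.041) and was lost in 6 of 16 fits with 1 library left out: those without either NCI-H596 library of 0 h or of 3 h, replicate 1 of NCI-H596 at 12 h or replicate 1 of A549 at 12 h (adjusted p = 0.0516 to 0.133). No difference between the lines was called at any time (differences 0.13, 0.12 and 0.15, adjusted p = 0.653, 0.63 and 0.533).

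PKP2, a plakophilin best known from the heart (chr12:32790745-32896798, minus strand), rose early and then declined in NCI-H596. Levels were 43.9 and 46.4 CPM at 0 h, 116 and 111 CPM at 3 h, 85.8 and 92.7 CPM at 6 h, and 61.6 and 65.3 CPM at 12 h. None of these pairs overlapped, and the rise was 2.51-fold at 3 h (LFC 1.33 ± 0.0950, adjusted p = 1.03e-07), 1.98-fold at 6 h (LFC 0.98 ± 0.0947, adjusted p = 1.03e-06) and 1.40-fold at 12 h (LFC 0.49 ± 0.0959, adjusted p = 0.000999). The falls from 3 to 6 h (LFC -0.35, adjusted p = 0.0269) and from 6 to 12 h (LFC -0.50, adjusted p = 0.00247) were both called. An unnamed annotated gene on the same strand shares 4.12% of the exon length of PKP2, so a small part of its counts is uncertain.

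In A549, PKP2 was at 30.02 and 29.6 CPM at 0 h, 27.0 and 30.1 CPM at 3 h, 24.1 and 20.8 CPM at 6 h, and 31.7 and 27.5 CPM at 12 h. Only 6 h lay apart from 0 h there (LFC -0.41 ± 0.105, adjusted p = 0.00726), and this call was lost without replicate 2 of A549 at 6 h (LFC -0.29, adjusted p = 0.129). Of the 9 genes, PKP2 had the lowest p-value for a difference between the lines over the 3 times (adjusted p = 4.71e-06). The LFCs differed by 1.39 ± 0.140 at 3 h (adjusted p = 8.31e-06), 1.39 ± 0.141 at 6 h (adjusted p = 4.5e-06) and 0.50 ± 0.140 at 12 h (adjusted p = 0.0176). The difference at 12 h was lost without replicate 2 of A549 at 12 h (0.40, adjusted p = 0.0932) or replicate 1 of NCI-H596 at 0 h (0.46, adjusted p = 0.0748).

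PKP3, a plakophilin of most simple and stratified epithelia (chr11:392614-404908, plus strand), had 61.1 and 58.8 CPM at 0 h in A549, 59.2 and 54.3 CPM at 3 h, 54.8 and 55.1 CPM at 6 h, and 42.1 and 44.3 CPM at 12 h. It fell at 12 h (LFC -0.47 ± 0.0845, adjusted p = 0.000594), with the step from 6 to 12 h also called (adjusted p = 0.0147). In NCI-H596 it was at 157 and 168 CPM at 0 h, 159 and 161 CPM at 3 h, 176 and 198 CPM at 6 h, and 186 and 196 CPM at 12 h. Small rises were called at 6 h (LFC 0.21 ± 0.0787, adjusted p = 0.0443) and 12 h (LFC 0.23 ± 0.0789, adjusted p = 0.0286). The call at 6 h was lost in 12 of 16 fits with 1 library left out, all but those without replicate 1 of A549 at 0 h, replicate 1 of NCI-H596 at 6 h or either NCI-H596 library of 12 h (adjusted p up to 0.402, with a LFC of 0.11 without replicate 2 of NCI-H596 at 6 h). The call at 12 h was lost without either NCI-H596 library of 0 h or replicate 2 of 12 h (adjusted p = 0.051 to 0.22).

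The responses of PKP3 differed by 0.33 ± 0.115 at 6 h (adjusted p = 0.04) and by 0.71 ± 0.116 at 12 h (adjusted p = 0.000469), higher in NCI-H596. The difference at 6 h was lost in 13 of 16 fits with 1 library left out, all but those without replicate 1 of NCI-H596 at 6 h or either of its 12 h libraries (adjusted p up to 0.247, with a difference of 0.22 without replicate 2 of NCI-H596 at 6 h). The ratio of PKP2 to PKP3 per kilobase went from 0.181 and 0.179 at 0 h in NCI-H596 to 0.470 and 0.448 at 3 h, 0.314 and 0.303 at 6 h, and 0.214 and 0.215 at 12 h. In A549 it lay between 0.244 and 0.486 in all libraries. With merged exon lengths the ratios were lower throughout, at 0.103 and 0.102 at 0 h and 0.268 and 0.256 at 3 h in NCI-H596 and between 0.139 and 0.277 in A549.

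Among the desmosomal cadherins, DSG2 (chr18:31498177-31549008, plus strand), the desmoglein of simple epithelia, dipped in NCI-H596 and rose in A549. Its NCI-H596 levels were 293 and 296 CPM at 0 h, 251 and 228 CPM at 3 h, 239 and 249.7 CPM at 6 h, and 322 and 288 CPM at 12 h. The falls at 3 h (LFC -0.30 ± 0.0817, adjusted p = 0.011) and 6 h (LFC -0.27 ± 0.0815, adjusted p = 0.014) were called, and at 12 h the libraries overlapped those of 0 h (LFC 0.05, adjusted p = 0.673) after a rise from 6 h (LFC 0.32, adjusted p = 0.0141). The call at 3 h was lost without either NCI-H596 library of 0 h or replicate 2 of 3 h (adjusted p = 0.0506 to 0.117), and that at 6 h without replicate 2 of 0 h or replicate 1 of 6 h (adjusted p = 0.06 and 0.0819). A549 had 189 and 172 CPM at 0 h, 171 and 172 CPM at 3 h, 187 and 189 CPM at 6 h, and 218 and 221 CPM at 12 h. The rise at 12 h (LFC 0.29 ± 0.0823, adjusted p = 0.0141) was lost without replicate 2 of A549 at 0 h (LFC 0.22, adjusted p = 0.105) or without replicate 1 or replicate 2 of 12 h (adjusted p = 0.0717 and 0.0761). DSG2 responses were lower in NCI-H596 than in A549 at 6 h (-0.33 ± 0.116, adjusted p = 0.0422) and not over the 3 times (adjusted p = 0.134). The call was lost at 6 h without replicate 2 of A549 at 0 h, either A549 library of 6 h, either NCI-H596 library of 0 h or replicate 1 of NCI-H596 at 6 h (adjusted p = 0.063 to 0.0904).

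DSC2 (chr18:31058840-31102522, minus strand), the desmocollin of simple epithelia, was called lower in NCI-H596 at 3 h and higher in A549 at 12 h. In NCI-H596 it was at 23.7 and 22.8 CPM at 0 h, 14.7 and 16.2 CPM at 3 h, 18.0 and 21.9 CPM at 6 h, and 26.5 and 25.2 CPM at 12 h. The fall at 3 h (LFC -0.58 ± 0.130, adjusted p = 0.00306) was called, and the later times were not (LFCs -0.21 and 0.16, adjusted p = 0.203 and 0.348). In A549 it was at 23.9 and 19.6 CPM at 0 h, 20.03 and 18.2 CPM at 3 h, 22.9 and 26.6 CPM at 6 h, and 30.1 and 32.3 CPM at 12 h, a rise at 12 h (LFC 0.52 ± 0.125, adjusted p = 0.00485) that was lost without replicate 2 of A549 at 0 h (LFC 0.38, adjusted p = 0.0608). The differences between the lines were -0.40, -0.39 and -0.36 at 3, 6 and 12 h and none was called (adjusted p = 0.165, 0.113 and 0.158).

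DSC3 (chr18:30989365-31042815, minus strand), a desmocollin known from basal layers of stratified epithelia, had 24.6 and 23.5 CPM at 0 h in A549, 23.0 and 23.4 CPM at 3 h, 26.0 and 29.1 CPM at 6 h, and 36.7 and 32.4 CPM at 12 h. It rose at 12 h (LFC 0.52 ± 0.117, adjusted p = 0.00456), a call lost without replicate 1 of A549 at 12 h (LFC 0.42, adjusted p = 0.0723). In NCI-H596 it had 0 counts in 6 libraries and 1 count in each library of 6 h. NCI-H596, the line with the squamous markers, had no DSC3 library above the floor of 3 counts.

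**Figure D4:**
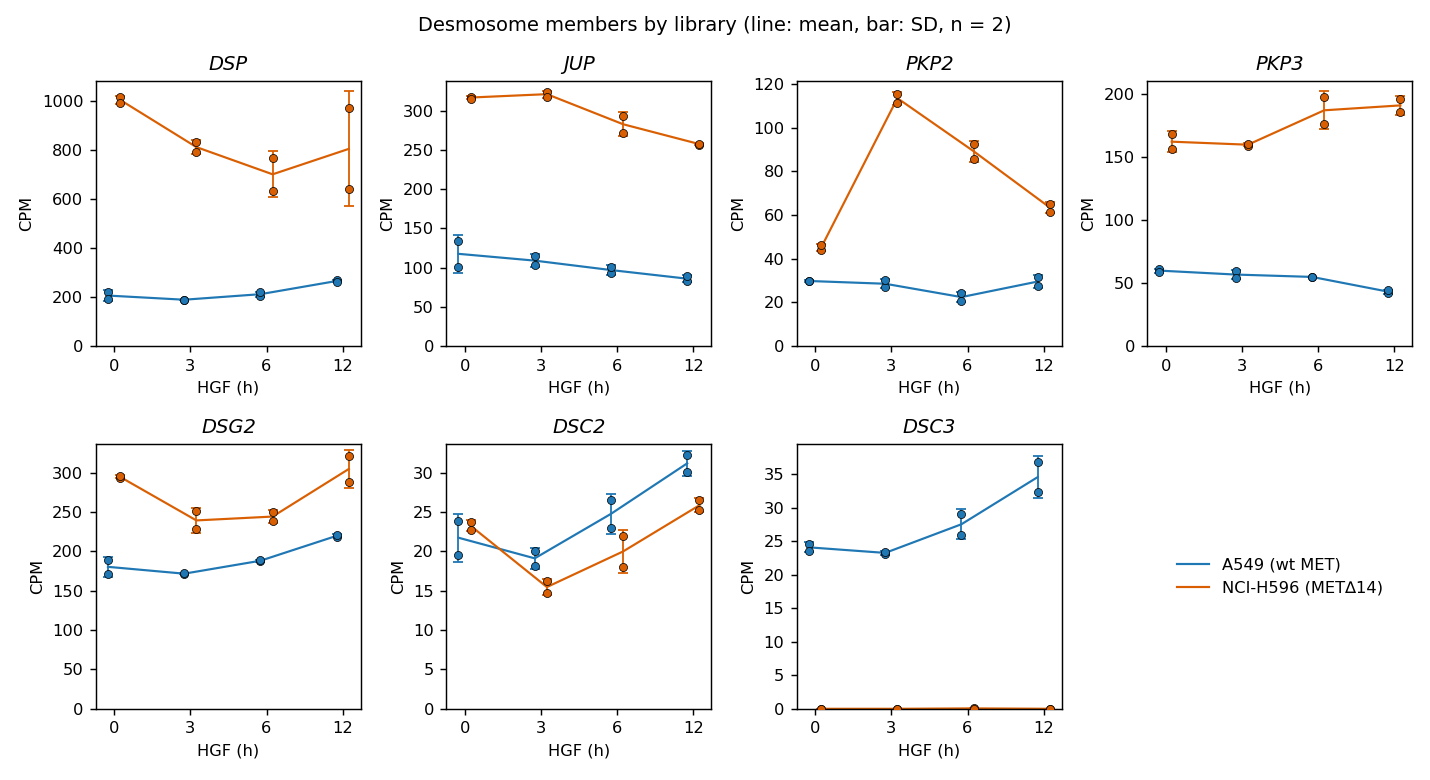
CPM of the 7 desmosome genes in each library against hours of HGF, drawn as equally spaced categories, on linear axes that start at 0. Points are libraries, lines join means and bars are the SD of 2 libraries. PKP2 peaked at 3 h in NCI-H596 (116 and 111 CPM), the replicates of DSP in NCI-H596 at 12 h lay at 972 and 641 CPM, and DSC3 was at 0 in NCI-H596 but for 1 count in each library of 6 h.

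Of 16 other connexin genes, 4 passed the expression filter, and in NCI-H596 all 4 were called higher at 3, 6 and 12 h. Of all genes, 15.5%, 21.6% and 18.3% were called higher at these times. The median LFCs of the 4 genes were 1.36, 1.13 and 1.11. GJB6, the neighbour of GJB2 on chromosome 13 and its partner in the cochlea, was at 1.04 and 1.84 CPM at 0 h, 6.27 and 4.30 CPM at 3 h, 6.89 and 8.91 CPM at 6 h, and 6.08 and 7.60 CPM at 12 h (LFC 2.43 ± 0.316 at 6 h, adjusted p = 9.51e-05). GJA3, a lens connexin on the other side of GJB2, was at 3.19 and 3.08 CPM at 0 h and at 11.1 and 12.3 CPM at 3 h (LFC 1.90 ± 0.226, adjusted p = 1.38e-05). All libraries with HGF were above both libraries without it for these neighbours of GJB2. GJB5, known from skin and placenta, was the most abundant of the 4, at 56.3 and 55.1 CPM at 0 h and at 94.3 and 109.8 CPM at 6 h (LFC 0.88 ± 0.145, adjusted p = 0.000422). Its call at 3 h was lost without any one NCI-H596 library of 0 or 3 h (adjusted p = 0.0909 to 0.126), and that at 12 h without either library of 0 h or replicate 2 of 12 h (adjusted p = 0.0573 to 0.0844). GJC1 was at 17.3 and 20.02 CPM at 0 h and at 41.6 and 35.5 CPM at 12 h (LFC 1.05 ± 0.111, adjusted p = 4.79e-06). Among the 6 connexins described here, GJA1 was the one with called falls in NCI-H596.

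In A549, GJB5 and GJB6 were at or near 0 counts, which left no basis for a call. Of the other 2, 0 were called higher at 3 and 6 h by edgeR and by DESeq2 and 1 at 12 h. By edgeR 0 were called lower, and 10.3%, 16.4% and 16.9% of all genes were called higher. With an unadjusted p under 0.05 there were 1, 0 and 1. GJC1 was at 49.99 and 52.9 CPM at 0 h and at 68.2 and 65.3 CPM at 12 h. Its rise at 12 h (LFC 0.38, adjusted p = 0.00998) was lost without replicate 1 of A549 at 0 h or at 12 h (adjusted p = 0.0731 and 0.0846). GJA3 was called over the 3 times (adjusted p = 0.00536) with LFCs of -0.82, -0.47 and 0.50 that each missed the threshold. GJB6 had 0 counts in every A549 library, and GJB5 had 1 count in one of them and 0 in the others. The response differed between the lines over the 3 times for GJA3 (adjusted p = 0.000186) and GJC1 (adjusted p = 0.000596). It was higher in NCI-H596 for both, with differences of 2.72 ± 0.373 (GJA3) and 1.01 ± 0.152 (GJC1) at 3 h. The other 12 connexin genes, among them GJA4, GJA5, GJB1 and GJD2, did not pass the filter.

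The pannexins form large-pore channels of a family separate from the connexins. PANX1, the widespread member, was at 44.3 and 45.4 CPM at 0 h in NCI-H596 and at 95.5 and 111 CPM at 6 h. It rose at 3 h (LFC 0.76 ± 0.0981, adjusted p = 2.88e-05), 6 h (LFC 1.2 ± 0.0975, adjusted p = 1.85e-07) and 12 h (LFC 0.73 ± 0.0984, adjusted p = 4.5e-05). No change of PANX1 was called in A549 (LFCs -0.09, -0.18 and 0.14), and the response differed between the lines (adjusted p = 4.17e-05 over the 3 times). PANX2 was called lower at 12 h in both lines (LFC -0.76 in A549, adjusted p = 0.0104, and -0.41 in NCI-H596, adjusted p = 0.0396), without a called difference between them (adjusted p = 0.597). The call in A549 was lost without replicate 1 of A549 at 0 or 12 h (adjusted p = 0.237 and 0.0697), and that in NCI-H596 in 9 of 16 fits with 1 library left out, of A549 at 6 or 12 h or of NCI-H596 at 0, 6 or 12 h (adjusted p up to 0.206). PANX3 did not pass the filter.

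Of 9 other desmosome genes, 6 passed the filter. In NCI-H596, 3 were called lower and 0 higher at each time, with median LFCs of -0.42, -0.56 and -0.30. Of all genes, 16.1%, 22.5% and 20.1% were called lower at 3, 6 and 12 h. PPL, or periplakin, a plakin of the same family as DSP, fell from 507 and 513 CPM at 0 h to 149 and 100.6 CPM at 12 h (LFC -2.02 ± 0.158, adjusted p = 4.87e-07), the largest called fall of the junction genes considered here. DSG3, the desmoglein of stratified epithelia, which is also one of the squamous markers, fell from 138 and 127 CPM at 0 h to 52.3 and 72.4 CPM at 6 h (LFC -1.08 ± 0.139, adjusted p = 1.84e-05) and stayed at 62.8 and 65.7 CPM at 12 h. EVPL, or envoplakin, fell at 3 h (LFC -0.66, adjusted p = 0.00398) and 6 h (LFC -1.02, adjusted p = 8.52e-05) and at 12 h was at 39.7 and 26.9 CPM against 42.2 and 40.6 CPM at 0 h (adjusted p = 0.134). The third call at 12 h was PERP (LFC -0.31, adjusted p = 0.0474), which was lost in 13 of 16 fits with 1 library left out, all but those without either NCI-H596 library of 6 h or replicate 2 of 12 h (adjusted p up to 0.258).

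In A549, 4 of these genes had at least 10 counts, and of these 1, 3 and 2 were called lower at 3, 6 and 12 h and 0 higher. Of all genes, 7.16%, 17.8% and 18.2% were called lower. EVPL was called at all times (LFCs -0.60, -0.95 and -0.86), PKP4 at 6 and 12 h (LFCs -0.51 and -0.41, adjusted p = 0.000859 and 0.00423), and PPL at 6 h (LFC -0.52, adjusted p = 0.0213). Lost without replicate 1 of A549 at 0 h were the calls of EVPL at 3 h (adjusted p = 0.177), of PKP4 at 12 h (adjusted p = 0.0643) and of PPL (adjusted p = 0.11). The call of EVPL at 3 h was also lost without replicate 2 of A549 at 3 h (adjusted p = 0.226), and that of PPL without replicate 2 of 0 h or either library of 6 h (adjusted p = 0.0672 to 0.107). The fall of PPL was larger in NCI-H596 (difference -1.65 ± 0.221 at 12 h, adjusted p = 0.000121), and the response of PKP4 was higher there (difference 0.59 at 12 h, adjusted p = 0.00458). DSG3 and PKP1, with 9 counts or fewer in every A549 library, were at 133 and 26.4 CPM in NCI-H596 at 0 h and passed the filter through that line. The other 4 genes were all called higher in NCI-H596 before HGF (40.6% of all genes were).

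**Figure D5:**
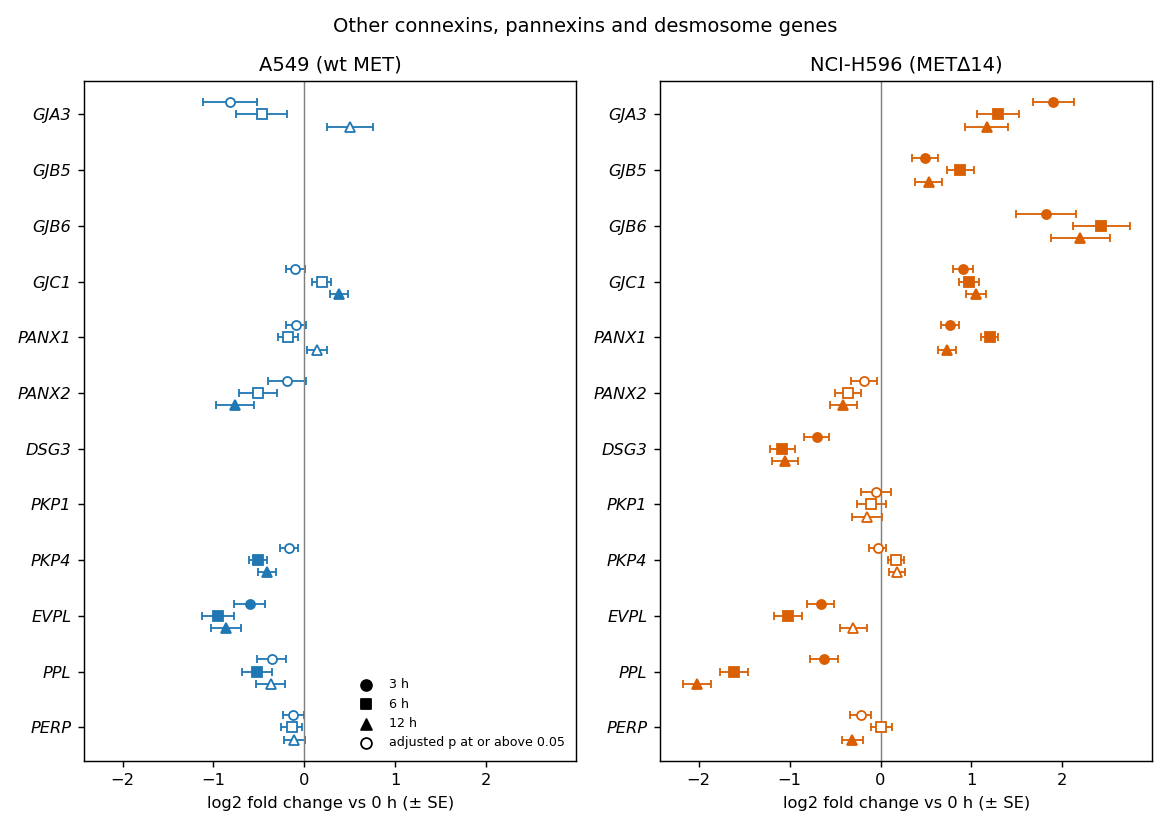
Log2 fold change (LFC) against 0 h of the same line (± SE) for the other connexins, pannexins and desmosome genes that passed the expression filter, at 3, 6 and 12 h of HGF in A549 (left) and NCI-H596 (right). Filled symbols have an adjusted p-value under 0.05 (edgeR), and genes with fewer than 10 counts in every A549 library (GJB5, GJB6, DSG3, PKP1) are left out there. In NCI-H596 the 4 connexins lie to the right of 0 at all times, while PPL (-2.02 at 12 h), DSG3 and EVPL lie to the left.

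The course of a gene over the 16 libraries was described as its log2 CPM minus the mean of the same line at 0 h. Over the 9638 tested genes whose mean log2 CPM reached 3, the courses most like that of GJB2 were those of DDX21, a nucleolar RNA helicase (Pearson r = 0.966), SURF6, a nucleolar protein (0.965), and MICAL2, an actin-oxidising enzyme (0.963). DDX21 had 148 CPM at 0 h, 525 CPM at 6 h and 311 CPM at 12 h in NCI-H596. With a smaller prior count, which changes the values of GJB2 in A549, where it had 0 to 4 counts, 0 of these 3 genes remained among the first 3. CALCOCO2, an autophagy receptor (r = 0.981), SORT1, a sorting receptor (0.963), and NINJ1, an adhesion molecule that acts in membrane rupture (0.963), were most like GJA1. For DSP the first 2 were PGAP1 (r = 0.952) and GABRE (0.949). Like DSP, both had NCI-H596 replicates far apart at 12 h (24.65 ± 8.11 CPM for PGAP1 and 253.4 ± 153.8 CPM for GABRE, SD, n = 2). The difference between those replicates thus enters their r, beside the course over time. These correlations share the libraries and their scaling and carry no p-value.

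Among the 9 genes themselves, the course of GJB2 in the 8 NCI-H596 libraries was most like that of PKP2 (r = 0.933), and that of GJA1 most like that of JUP (r = 0.850). In the 8 A549 libraries, DSP, DSG2, DSC2 and DSC3 ran close together (r = 0.915 to 0.986 in pairs), and PKP3 ran against them (r = -0.911 to -0.759). In NCI-H596 the pair DSG2 and DSC2 was at r = 0.838, and DSP was at 0.564 with DSG2 and at 0.265 with DSC2. These values rest on 8 libraries of 4 conditions and are descriptions only.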

How the data were processed

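RNA of A549 (wt MET) and NCI-H596 (MET∆14) cells had been sequenced after 0, 3, 6 and 12 h of HGF, with 2 libraries in each of 8 conditions. For the deposited table, the authors removed adapter sequence, aligned reads to hg38 with STAR and gave whole-number counts per gene, not normalized. The submitters' processing notes name STAR 2.5.0 and RSEM 1.3.2, and whether counting used strand is not given in the sources used here. Table columns of A549 spell the line H549, unlike the sample titles, and were matched by the remainder of the name. The study calls the replicates biological duplicates, and the labels do not say how they were made.

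The table was fitted whole in edgeR 4.0.16 (R 4.3.3). Of 42351 genes, filterByExpr retained 15067 (minimum count 10, minimum total 15). After TMM scaling, each condition had its own coefficient in a robust quasi-likelihood fit (common biological coefficient of variation 0.0868), and Benjamini-Hochberg adjustment ran over all retained genes. A difference between the lines is the LFC of NCI-H596 minus that of A549. Tests over the 3 times were F tests. The study used line and time as additive terms in DESeq2, a formula fitted here in edgeR. CPM per kb divides by the longest GENCODE transcript. The courses used log2 CPM with a prior count of 2. A floor of 3 counts per library was used for genes near 0, and intervals cover counting error only. Library totals ranged from 10158590 to 23909304 counts, and the spread between replicates also limits the precision.

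The 9 genes, all gene lists, markers and motifs were chosen with earlier results of these data known. From the lists of other connexins, pannexins and desmosome genes, those called over the 3 times in a line were named, up to the 4 with the largest absolute LFC per list and line. Named outside that rule, after their values were seen, were GJB5, GJC1, PANX2, PERP and PKP1 in NCI-H596 and PPL in A549. Some genes that the lists or rules take in are not reported here, and counts over the lists leave them out. When counts were simulated with 200 of 14850 genes changed 2-fold in NCI-H596 at 3 h, the test of that time recovered 96.5% with 8 false calls, and the contrast between both lines 78% with 5. The simulation gave all genes the same spread, changed only genes expressed in both lines and held no replicates that stand apart. Its recovery and false calls therefore need not hold for these data. Alternatives were DESeq2 1.42.0 and its size factors, other filters (none, or 10 counts or more in each library), a minimum LFC, a replicate block, separate fits per line, every library left out in turn, merged exon lengths and a prior count of 0.5. Their use on the other connexins, pannexins and desmosome genes was decided after seeing the data. Pairing by replicate number was checked from deviations from the group means. Plots were made with matplotlib 3.10.9.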

Additional observations from a re-analysis of the deposited data

Results flagged for a closer look

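The response to HGF differed between the lines in the F test over the 3 times for GJA1 (adjusted p = 0.00238), PKP2 (adjusted p = 4.71e-06), PKP3 (adjusted p = 0.000687) and DSP (adjusted p = 0.0494), out of the 7 genes with at least 10 counts in both lines. The mean difference over the times, NCI-H596 minus A549, was -0.59 for GJA1, 1.09 for PKP2, 0.36 for PKP3 and -0.47 for DSP on the log2 scale. The first 3 calls were kept with any 1 library left out, whereas that of DSP was lost in 13 of 16 such fits. With 2 libraries per condition, no single library could be tested as an outlier within its group.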

How the results depend on the processing

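Where calls also needed an absolute log2 fold change of at least 1, those among the 9 genes went to 0 in A549 at 3, 6, 12 h, at any time and from 6 to 12 h. In NCI-H596 they went to 2 at 3, 6 and 12 h each, 3 at any time, 0 from 3 to 6 h and 1 from 6 to 12 h. The differences between the lines went to 1 at 6 h, 0 at 12 h and 1 over the 3 times. The additive model went to 1, which was GJB2 (mean LFC 2.95, adjusted p = 1.05e-06 in its F test). GJB2 was near 0 counts in A549, so this call does not show a time effect common to the lines. With each line fitted alone, which leaves fewer libraries to estimate the spread, 5 genes were called in A549 from 6 to 12 h, 3 in NCI-H596 at 6 h and 0 in NCI-H596 from 3 to 6 h. The other 102 counts of calls under these alternatives stayed within 1.5 times. Shares of all genes called were not computed for the minimum fold change, with each line alone or with 1 library left out. These counts therefore do not show how the 9 genes compare with all genes.

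With 1 library left out, the counts over the 9 genes, GJB2 and DSC3 included, ranged from 0 to 1 in A549 at 3 h, 1 to 3 at 6 h, 3 to 7 at 12 h, 4 to 8 at any time, 0 to 1 from 3 to 6 h and 0 to 6 from 6 to 12 h. In NCI-H596 they ranged from 4 to 6 at 3 h, 4 to 6 at 6 h, 3 to 5 at 12 h, 5 to 8 at any time, 0 to 4 from 3 to 6 h and 1 to 5 from 6 to 12 h. The differences between the lines ranged from 1 to 2 at 3 h, 2 to 6 at 6 h, 2 to 5 at 12 h and 3 to 5 over the 3 times, the additive model from 4 to 6, and all such fits gave 8 at 0 h. Those 8 include GJB2 and DSC3, which had to differ at 0 h, where 80.2% of all genes were called with all libraries.

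Among the changes checked gene by gene, signs turned only for those that were not called. PKP2 in A549 at 12 h (-0.01) became 0.01 with DESeq2, with its size factors or with each line alone, and 0.02 with at least 10 counts in every library. PKP3 in NCI-H596 at 3 h (-0.02) became 0.03 with each line alone. With 1 library left out, the values ranged from -0.12 to 0.04 for PKP2 in A549 at 3 h and from -0.13 to 0.08 at 12 h, from -0.28 to 0.12 for JUP in A549 at 3 h, and from -0.03 to 0.15 for DSP in A549 at 6 h. They ranged from -0.07 to 0.03 for PKP3 in NCI-H596 at 3 h, from -0.04 to 0.12 for DSG2 in NCI-H596 at 12 h and from -0.02 to 0.24 for DSC2 between the lines at 0 h. The difference between the lines ranged from -0.02 to 0.09 for PKP3 at 3 h and, for JUP, from -0.09 to 0.30 at 3 h, -0.11 to 0.28 at 6 h, -0.07 to 0.35 at 12 h and from -0.09 to 0.31 over the 3 times.

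Some calls near the threshold also turned on the tool or filter, and the cause was not tested. DSP in A549 at 12 h was called by 5 alternatives (adjusted p = 0.000552 to 0.0493) and its difference at 6 h by 4 (adjusted p = 0.00118 to 0.0396). PKP3 in NCI-H596 at 6 h lost its call without a filter (adjusted p = 0.105), with at least 10 counts in every library (adjusted p = 0.0787) and with each line alone (adjusted p = 0.0708), and at 12 h without a filter (adjusted p = 0.087) and with each line alone (adjusted p = 0.054). In NCI-H596, the calls of DSG2 at 3 h (adjusted p = 0.086) and 6 h (adjusted p = 0.0753) and of DSP at 6 h (adjusted p = 0.0561) were lost with each line alone, that of DSG2 at 6 h also without a filter (adjusted p = 0.05), and that of JUP at 12 h with DESeq2's size factors (adjusted p = 0.053). The differences at 6 h were lost without a filter for DSG2 (adjusted p = 0.0997) and PKP3 (adjusted p = 0.127), and for PKP3 also with at least 10 counts in every library (adjusted p = 0.0721). With DESeq2 and with its size factors, PANX2 (adjusted p = 0.111 and 0.0517) and PERP (adjusted p = 0.0629 and 0.0764) were not called in NCI-H596 at 12 h, nor was PERP with each line alone (adjusted p = 0.197). The filter of at least 10 counts in every library removed GJB2, DSC3 and 2 of the 4 other connexins, so that 2 connexins were called higher in NCI-H596 at 3, 6 and 12 h each, and it moved the median of the line difference at 0 h by 0.105. With each line alone, 1 of the 4 was called higher in A549 at 6 h. The genes most like GJB2 shared 0 of 3 with those at a prior count of 0.5.

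No pairing by replicate number was seen: deviations from the group means of same-numbered libraries correlated between -0.159 and 0.035, with 0 of 12 pairs over 0.1. Counting noise enters these deviations, so the check cannot exclude that same-numbered libraries were made together. With the replicate block, 1 of the 9 genes was called in A549 at 3 h, 2 at 6 h and 6 at 12 h, and over all genes the calls were 0.662 to 0.948 times as many. The block ended the calls of PKP3 in NCI-H596 at 6 h (adjusted p = 0.0509), JUP at 12 h (adjusted p = 0.0575), and the differences of DSG2 at 6 h (adjusted p = 0.0628) and DSP over the 3 times (adjusted p = 0.0732). It also ended those of PANX2 (adjusted p = 0.0599) and PERP (adjusted p = 0.0503) in NCI-H596 at 12 h, and no other call checked gene by gene. Not checked in this way were calls between neighbouring times, over the 3 times within a line and in the additive model, and those at 0 h outside the 9 genes. With 2 libraries per condition, the smallest change called among the 9 genes was 0.21 on the log2 scale.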
